A study of Mus musculus with 4 samples.

Results

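The Th-positive neurons without Ghrh were 52 of the 6351 cells kept from the embryonic arcuate nucleus, or 0.819% (exact 95% binomial interval 0.612 to 1.07%). A cell was a member where it held at least 1 unique molecular identifier (UMI, 1 counted RNA molecule) of Th and 2 of the neuronal gene Stmn2, no UMI of Ghrh, Otp, Lhx1 or Lhx1os, and fewer than 3 UMIs of Pomc. The cells were thus chosen by their measured UMIs of these 7 genes, whose values are given as a description only. The cells came from arcuate nuclei of C57BL/6 embryos at E15 (the titles read E15_5) that carried the Pomc-eGfp reporter, which marks Pomc cells and is shared by every cell here. The nuclei were dissected, pooled over embryos, digested with papain and run on a droplet platform. There was no treatment or other genotype. The 4 sequencing runs share 1 table in which cells carry no run or embryo name, so all cells count as 1 sample, no p-value is given, and intervals cover counting error only.

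Tyrosine hydroxylase, the product of Th, carries out the rate-limiting step of catecholamine synthesis, making L-DOPA from tyrosine, which the decarboxylase Ddc turns into dopamine and the vesicular transporter Slc18a2 loads into vesicles. In the adult, tuberoinfundibular dopamine neurons of the arcuate nucleus release dopamine into the portal blood and hold back prolactin secretion from the pituitary, and some growth hormone-releasing hormone (Ghrh) neurons also contain tyrosine hydroxylase. Dlx homeodomain factors act in developing GABAergic neurons of the forebrain and hypothalamus.

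Th lies on the minus strand of chromosome 7 from 142892752 to 142931128 (GRCm38, GENCODE vM21). The 250 bases before its RefSeq start, at chr7:142899996-142900245 on the minus strand of GRCm38.p6, are shown because Th is the gene that defines these cells, with the 8-base cyclic AMP response element in capitals. The GENCODE gene model reaches farther upstream, so this window lies inside it.
Th: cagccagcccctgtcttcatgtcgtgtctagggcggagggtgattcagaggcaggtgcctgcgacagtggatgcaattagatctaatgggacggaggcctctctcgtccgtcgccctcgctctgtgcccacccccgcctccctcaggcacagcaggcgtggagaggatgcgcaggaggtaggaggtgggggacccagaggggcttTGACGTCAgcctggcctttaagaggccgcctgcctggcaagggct
The motif searched was TGACGTCA on both strands, and 508 of 32851 promoter windows of this length (1.55%) hold it. In the Th window its first base lies 45 bases before the start. The homeodomain core TAATTA, found in 1590 windows (4.84%), was not among the letters of this one. These matches describe the letters of the window and nothing about binding.

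The 6465 barcodes in the table held 26277265 UMIs, from 1748 to 51681 per barcode, and the 6351 kept had a median of 3338 UMIs and 1596 genes. The members had a median of 3026 UMIs (range 1786 to 13289) and 185881 in all, with a median of 3.80% mitochondrial UMIs. They were compared with 57 cells that held both Th and Ghrh (median 3251 UMIs), with the 3954 other kept cells with at least 2 Stmn2 UMIs (median 3418, of which 45 are also among the 57), and with 2574 cells that met every condition of the same gate but had no Th UMI (median 3598.5). Levels are pooled UMIs per 1000000 of the group's UMIs (CPM) with exact Poisson intervals, and ratios carry exact conditional binomial intervals. Levels are compared within a gene and between groups of cells, since no length scaling was applied.

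Th was thin in these cells. It was found in 200 kept cells with 300 UMIs in all, of which 78 UMIs fell in the members, 112 in the cells with Ghrh and 110 in 91 cells that met neither definition. Of those 91, 25 had fewer than 2 Stmn2 UMIs and 48 held Otp, a factor of several arcuate and paraventricular lineages. Another 16 held Lhx1 or Lhx1os, and 5 had 3 or more Pomc UMIs, with 3 cells counted under more than 1 of these conditions. A single Th UMI was all that 35 of the 52 members had, while 12 had 2, 3 had 3, 1 had 4 and 1 had 6. Pooled Th was 420 CPM (332 to 524) against 593 CPM (489 to 714) in the cells with Ghrh. Near the limits of the gate, 6 members had exactly 2 Stmn2 UMIs and 6 cells with 1 Stmn2 UMI met the rest, 1 member had 2 Pomc UMIs and no cell with 3 met the rest, and 5 cells met the rest with 1 Ghrh UMI. Ghrh itself had a median of 8 UMIs (1 to 35) in the co-positive cells, of which 6 held 1.

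**Figure D1:**
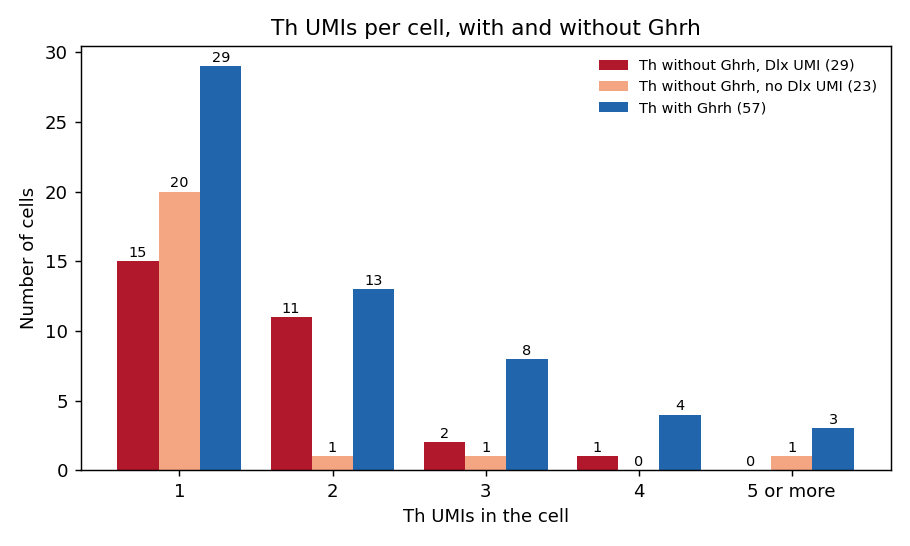
Bars give the number of cells (vertical axis) at each number of Th UMIs in the cell (horizontal axis), for Th cells without Ghrh that held a Dlx UMI (29) or none (23) and for Th cells with Ghrh (57). Of the 17 cells without Ghrh that had 2 or more Th UMIs, 14 held a Dlx UMI.

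Dlx genes divided the members. The markers given for these cells were Th, Dlx1 and Dlx2, and a UMI of Dlx1, Dlx2, Dlx5, Dlx6 or the antisense transcript Dlx6os1 was present in 29 of the 52, while 23 had none. Among the 35 members with 1 Th UMI 15 held a Dlx UMI, and among the 17 with more 14 did. The only 2 members above 3 Th UMIs fell one in each class, at 4 with Dlx and 6 without. The Dlx name therefore fitted part of the gate, and both classes are described apart where they differ.

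Among all gate cells, Th-positive or not, a Th UMI was found in 29 of 280 with a Dlx UMI, or 10.4% (7.05 to 14.5%), and in 23 of 2346 without, or 0.980% (0.622 to 1.47%). The cells with Dlx were the shallower group, at a median of 2915.5 UMIs against 3665.5. With every cell thinned to 2167 UMIs, and shallower cells left out, the shares were 18 of 256, or 7.03% (4.22 to 10.9%), and 14 of 2214, or 0.632% (0.346 to 1.06%). Pooled Th was 49.1 CPM with Dlx and 3.30 CPM without, a ratio of 14.9 (9.27 to 24.2). At least 2 Th UMIs were found in 14 of the 280, or 5% (2.76 to 8.25%), and in 3 of the 2346, or 0.128% (0.0264 to 0.373%).

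Free RNA in droplets leaves Th UMIs in cells that do not express the gene, so the same share was taken in cells that should lack it. Among 204 cells rich in vascular transcripts with fewer than 2 Stmn2 UMIs (median 3861 UMIs), 2 held Th, or 0.980% (0.119 to 3.50%), at 3.18 CPM. One of those 2 also held 7 Ghrh and 2 Dlx UMIs, and without the cells that held Ghrh the share was 1 of 202, or 0.495% (0.0125 to 2.73%). Among cells with no Stmn2, Ghrh or Dlx UMI it was 6 of 1585, or 0.379% (0.139 to 0.822%), at 0.999 CPM and a median of 3232 UMIs. The Th level of gate cells with Dlx was 15.4 times the vascular level (4.96 to 77.5) and 49.1 times that of the Stmn2-free cells (21.0 to 141). For gate cells without Dlx the ratios were 1.04 (0.323 to 5.29) and 3.30 (1.36 to 9.67). Against the 202 vascular cells without Ghrh (1 Th UMI, 1.07 CPM) the ratios were 46.0 (7.86 to 1854) with Dlx and 3.09 (0.515 to 126) without. The level of gate cells without Dlx was therefore above that of Stmn2-free cells and not distinguishable from that of vascular cells at this depth. The part of free RNA in the 23 members without a Dlx UMI was not tested, and they are described apart.

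**Figure D2:**
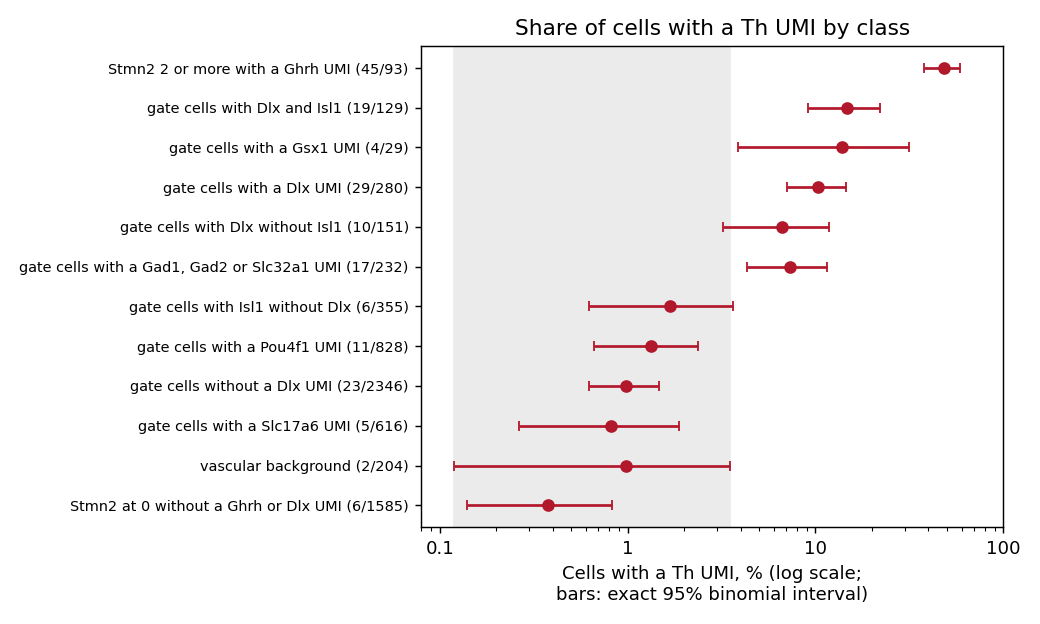
Points give the percentage of cells with a Th UMI (horizontal log axis) in classes of cells (vertical axis, with cells counted), bars the exact 95% binomial interval, and the grey band the interval of the vascular background. Gate cells with a Dlx UMI (10.4%) lie above the band, and gate cells without one (0.980%) and cells with no Stmn2, Ghrh or Dlx UMI (0.379%) lie inside it.

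The Th share also varied within the Dlx class, though with overlapping intervals. It was 19 of 129 (14.7%, 9.11 to 22.0%) where Isl1, an arcuate LIM-homeodomain factor, was present beside Dlx, and 10 of 151 (6.62%, 3.22 to 11.8%) where it was not. At equal depth this contrast was smaller, at 8.26% and 5.93%. Isl1 without Dlx gave 6 of 355, or 1.69%. With Hmx2 or Hmx3, homeobox factors needed for Ghrh expression, the share among Dlx cells was 10 of 91 (11%), and without them 19 of 189 (10.1%), an order that turned at equal depth to 4.65% and 8.24%, so none is read from it. Across single Dlx genes, the share ran from 3 of 60 (5%) for Dlx6 through 9.09% for Dlx5, 11% for Dlx2 and 13.5% for Dlx1 to 10 of 69 (14.5%) for Dlx6os1. Dlx6 and Dlx6os1 overlap by 5235 bases on opposite strands, and whether the counting used strand is not given in the sources used here. Gate cells with a Gad1, Gad2 or Slc32a1 UMI, the genes of GABA synthesis and loading, held Th in 17 of 232 (7.33%, 4.33 to 11.5%), and those with the glutamate transporter Slc17a6 in 5 of 616 (0.812%). For Stmn2-positive cells with Ghrh the share was 45 of 93, or 48.4% (37.9 to 59.0%). It was 52 of 750 with Otp (6.93%, 5.22 to 8.99%), which overlaps the interval of the Dlx cells, and 17 of 346 with Lhx1 or Lhx1os (4.91%, 2.89 to 7.75%). The Otp and Lhx1 classes were not filtered for Dlx or Ghrh, so they do not show how much of their Th lay outside such cells.

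Against the 2574 Th-negative cells of the same gate, the leading genes of the members were Dlx factors and factors of the Ghrh lineage. At least 2-fold differences were found for 79 of the 3129 genes at a mean of 50 CPM or more (2.52%), 45 higher (1.44%) and 34 lower (1.09%). Dlx1 (chromosome 2, 71528113 to 71533981) had 22 UMIs in the members, or 118 CPM, against 13.2 CPM, a ratio of 8.99 (5.45 to 14.2). Dlx2, its neighbour on chromosome 2 from 71543408 to 71546754, stood at 134 against 18.2 CPM (7.40, 4.67 to 11.3). Dlx5 stood at 91.5 against 13.4 CPM (6.84, 3.87 to 11.4). All 3 are transcription factors of GABAergic development.

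Of the 16 genes listed as Dlx or GABAergic factors, 6 reached the level for comparison, 4 of them at least 2-fold higher and 1 lower, with a median ratio of 4.77 beside 1.03 over all genes compared. Of the 12 listed for the Ghrh lineage, 6 were compared and 3 were higher, at a median of 2.13. Hmx2 stood at 118 against 18.3 CPM (6.47, 3.96 to 10.1). Isl1 stood at 242 against 89.5 CPM (2.70, 1.96 to 3.65) and was the 1 of 6 compared arcuate field factors past 2-fold.

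Prox1os, an antisense transcript of the homeobox gene Prox1, was next to Dlx1 in size of difference. It had 18 UMIs at 96.8 CPM against 10.8 CPM (8.96, 5.12 to 14.8), and Prox1 was 2.46 times higher (1.33 to 4.2). Both lie on chromosome 1, Prox1 from 190118035 to 190170714 on the minus strand and Prox1os from 190170296 to 190217276 on the plus strand. They share 419 bases at the start of both genes, where reads cannot be assigned without strand. The study names a method that reads the other end of RNAs. Also higher were Gng4, a G protein gamma subunit, at 4.08 (2.24 to 6.90), Asb4, an ankyrin repeat and SOCS box protein, at 3.84 (2.34 to 5.99), the chromatin organiser Satb1 at 3.36 (1.93 to 5.48), the synaptic adhesion gene Nrxn3 at 3.17 (2.22 to 4.40) and the imprinted gene Peg10 at 2.90 (2.19 to 3.78).

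Transmitter genes of the members were mostly below the level for comparison, and by cells counted they leaned to GABA in the Dlx class only. Gad1 and Gad2, which make GABA, were at 48.4 against 7.76 CPM (6.24, 2.75 to 12.4) and 53.8 against 11.8 CPM (4.56, 2.13 to 8.68). Slc32a1, the vesicular GABA transporter, was at 64.6 against 9.63 CPM (6.70, 3.35 to 12.2). Slc17a6, the vesicular glutamate transporter, was at 37.7 against 76.3 CPM, with an interval that reached 1 (0.494, 0.198 to 1.02). A GABA gene was seen in 17 members and Slc17a6 in 5, both in none, and neither in 30, so most of these shallow cells could not be assigned a transmitter. With Dlx, 13 of 29 members held a GABA gene and 1 held Slc17a6. Without Dlx, 4 of 23 held a GABA gene and 4 held Slc17a6.

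Among the 34 genes on the lower side were Chl1, a neural adhesion molecule, at 26.9 against 93.2 CPM (0.289, 0.0935 to 0.676), the zinc-finger homeobox gene Zfhx3 at 151 against 380 CPM (0.396, 0.263 to 0.574), the Kit ligand gene Kitl at 0.424 (0.193 to 0.808), and Vim, an intermediate filament gene of progenitors, at 0.426 (0.238 to 0.704). Tcf7l2, a Wnt effector abundant in the thalamus, was at 597 against 1267 CPM (0.471, 0.387 to 0.568).

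**Figure D3:**
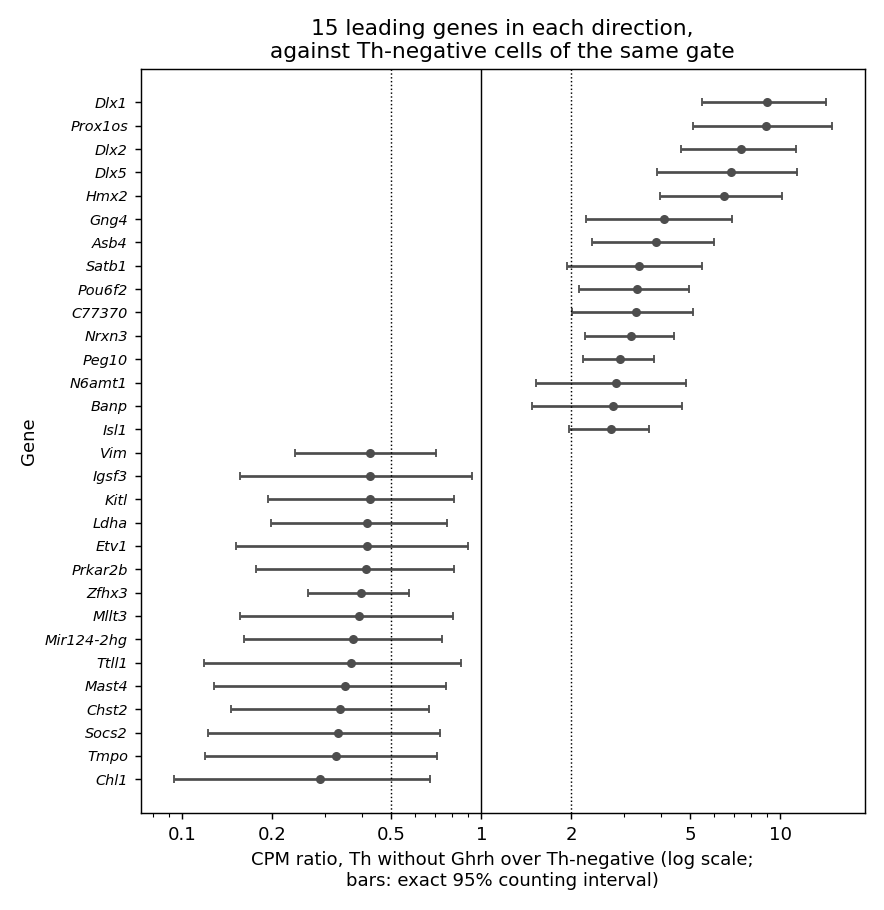
Points give the ratio of CPM in Th cells without Ghrh over Th-negative cells of the same gate (horizontal log axis) for the 15 leading genes in each direction (vertical axis), with exact 95% counting intervals and dotted lines at 2-fold. Dlx1 (8.99), Prox1os (8.96) and Dlx2 (7.40) are highest, and Chl1 (0.289) is lowest.

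Against all other Stmn2-positive cells, which include neurons with Ghrh, Otp, Lhx1 and Pomc, the contrast was smaller for Dlx1 and similar for Hmx2. Of 3123 genes compared 67 differed at least 2-fold (2.15%), 40 higher (1.28%) and 27 lower (0.865%). Hmx2 was 5.92 times higher (3.66 to 9.13), Dlx2 3.98 times (2.55 to 5.94) and Dlx1 3.69 times (2.29 to 5.65). Zfhx3 was again lower, at a ratio of 0.410.

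The enzymes and transporters that would follow tyrosine hydroxylase were found in few members. Ddc was seen as 3 UMIs in 3 members (16.1 CPM against 8.06 in Th-negative gate cells, ratio 2.0, 0.405 to 6.06) and Slc18a2 as 3 UMIs in 3 members, all 3 with Dlx (16.1 against 1.18 CPM, ratio 13.7, 2.48 to 50.7). No member held both. A UMI of either was in 6 of the 52 members (11.5%, 4.35 to 23.4%) and 84 of the 2574 Th-negative gate cells (3.26%, 2.61 to 4.02%). For the cells with Ghrh it was 1 of 57 (1.75%, 0.0444 to 9.39%). Of 16 catecholamine genes listed, 7 had no UMI in the members: the cofactor synthesis gene Gch1, the noradrenaline and adrenaline enzymes Dbh and Pnmt, the dopamine, noradrenaline and vesicular transporters Slc6a3, Slc6a2 and Slc18a1, and the degrading enzyme Maob. Taken as 3 counts, the limit that a count of 0 allows is a share of 5.77% of the 52 cells with a UMI and a level of 16.1 CPM. Genes with wider roles were present, Pcbd1 at 64.6 CPM, Qdpr at 53.8 CPM and Maoa at 43.0 CPM. Only 2 of the 16 reached the level for comparison with Th-negative gate cells, and neither was past 2-fold.

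Midbrain dopamine factors were mostly at 0, while the summed levels of adult arcuate Th type genes and of hormone receptors were near those of Th-negative gate cells. Of 9 midbrain dopamine factors 8 had no UMI, and the exception, the nuclear receptor Nr4a2, had 20 UMIs in 8 cells (108 CPM). Of these 20 UMIs 18 fell in members without Dlx. Nr4a2 also made up nearly all of that list in Th-negative gate cells (list sum 199 CPM, Nr4a2 ratio 0.546), so the zeros are not read as a trait of the members. The receptors through which adult arcuate cells sense prolactin (Prlr), dopamine (Drd1, Drd2), ghrelin (Ghsr), leptin (Lepr) and oestrogen (Esr1) were at 0, and 8 of 14 listed receptors had no UMI. The receptor list summed to 619 CPM in the members, 660 CPM in Th-negative gate cells and 419 CPM in cells with Ghrh. Thra, a thyroid hormone receptor gene, made up most of the sum in the members. Only 2 of the 14 reached the level for comparison with Th-negative gate cells. Nfia, Nfib, Onecut2 and Lef1, factors of adult Th-positive arcuate types, were at 53.8, 69.9, 75.3 and 53.8 CPM. The 11 genes of that list summed to 280 CPM in all members, 309 CPM in Th-negative gate cells and 164 CPM in cells with Ghrh. They lay mostly outside the Dlx class, summing to 13 UMIs (133 CPM) with Dlx and 39 (443 CPM) without, and Nfia, Nfib and Lef1 were at least 2-fold lower with Dlx. Of 27 neuropeptide genes 15 were at 0, among them Ghrh, set to 0 by the gate, and Npy, Agrp, Tac2 and Kiss1. Of all 2626 gate cells only 59 held Npy and 28 Tac2, so zeros in 52 cells are not read as a trait. The list summed to 280 CPM in the members and 279 CPM in Th-negative gate cells. Tac1, the substance P precursor, had 16 UMIs in 6 cells (86.1 CPM) and the neurotensin gene Nts 8 UMIs in 3 cells (43.0 CPM).

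Markers of other cell types were low in the members as a whole. No UMI of 6 macrophage or 6 oligodendrocyte precursor and astrocyte genes was found in any member. Endothelial genes summed to 6 UMIs (32.3 CPM against 24.0 in Th-negative gate cells) and mural and fibroblast genes to 3 UMIs (16.1 against 44.0 CPM). The 8 pituitary genes listed, hormones and transcription factors, summed to 15 UMIs (80.7 against 57.3 CPM), 7 of them Cga in 2 cells and 4 Tshb in 1 cell. Of these 15 UMIs 14 fell in Dlx-positive members, at 143 CPM against 48.9 CPM in Th-negative gate cells with Dlx, and the 2 cells with Cga or Tshb both had 2 or more Th UMIs. Without the 5 Dlx-positive members, and the other Dlx gate cells, that held any pituitary gene, the Th share of Dlx cells was 24 of 257, or 9.34% (6.08 to 13.6%). Erythroid genes stood at 382 against 269 CPM. Their part in the results above was not tested.

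Set against the 57 Th cells with Ghrh, the members had less of Prox1, Gsx1 and Gal and more of thalamic and arcuate field factors. Of 3219 genes compared 423 differed at least 2-fold (13.1%), 203 higher (6.31%) and 220 lower (6.83%) in the members. With groups this small many such differences come from few UMIs, so genes with intervals clear of 1 are named. The cells with Ghrh were not held to the Stmn2 limit, which 45 of the 57 met. Neuronal maturation genes summed to 9990 CPM in the members and 6560 CPM in the cells with Ghrh. That list includes the gate gene Stmn2, with 437 of its 1857 UMIs in the members and 222 of 1238 in the cells with Ghrh. New neuron and precursor genes summed to 5240 and 2671 CPM. The part of both lists in the differences was not tested, and with those 45 cells alone 443 genes were past 2-fold. Prox1 was at 75.3 against 503 CPM, 6.68-fold lower (3.79 to 12.7). Gsx1, a homeobox factor upstream of Ghrh, was at 26.9 against 154 CPM, 5.71-fold lower (2.19 to 18.9). Prox1os was 3.01-fold lower (1.74 to 5.45) and Dlx1 2.42-fold lower (1.45 to 4.17). Over the Ghrh lineage list, 5 of 9 compared genes were at least 2-fold lower and 1 higher, with a median ratio of 0.37 beside 0.97 over all genes.

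Several peptide and secretory genes were among those lower in the members. The calcium sensor gene Scgn had 0 UMIs in the members and 23 in the cells with Ghrh (122 CPM), at least 7.55-fold lower with a floor of 3 UMIs over the group. Gal, the galanin precursor, was at 16.1 against 212 CPM, 13.1-fold lower (4.18 to 66.4). Of 27 neuropeptide genes 3 were compared, with Gal and Pnoc lower and Tac1 higher, at 86.1 against 26.5 CPM (3.25, 1.14 to 11.3). Pnoc, the nociceptin precursor, and Calcr, the calcitonin receptor, were each at 16.1 against 101 CPM, 6.24-fold lower (1.84 to 32.9). The dense-core vesicle gene Resp18 was at 199 against 726 CPM, 3.65-fold lower (2.52 to 5.40), and the granin-like inhibitor Pcsk1n was 2.52-fold lower (2.17 to 2.92). The secretory granule list was mixed, with 2 of 10 compared genes at least 2-fold lower, 2 (Pam and Pcsk2) higher and a median ratio of 0.98. Immediate-early genes were lower as well, 5 of 6 compared by at least 2-fold with a median ratio of 0.36, among them Fos at 221 against 752 CPM and Egr1 at 113 against 382 CPM. Such genes respond to activity in neurons and also to tissue dissociation, and the part of dissociation was not tested.

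On the other side, the cells with Ghrh had no UMI of several genes that the members held. Cbln2, a synaptic organiser, was at 403 CPM in the members and at least 25.4-fold higher, and Pou4f1, a POU factor of the habenula and sensory neurons, at 264 CPM (49 UMIs in 11 cells) and at least 16.6-fold higher. Tcf7l2 was 28.2 times higher (10.7 to 105) and the basic helix-loop-helix gene Nhlh2 17.9 times (5.81 to 89.7). Among arcuate field factors 4 of 5 compared were at least 2-fold higher with a median ratio of 3.25, led by Nkx2-1, a factor of the ventral hypothalamus, at 161 against 26.5 CPM (6.09, 2.34 to 20.1). Tbx3, a factor of arcuate peptide neurons, was at 53.8 CPM against 0, at least 3.38-fold higher. The thyroid hormone receptor gene Thra was at 511 against 207 CPM (2.47, 1.69 to 3.69).

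**Figure D4:**
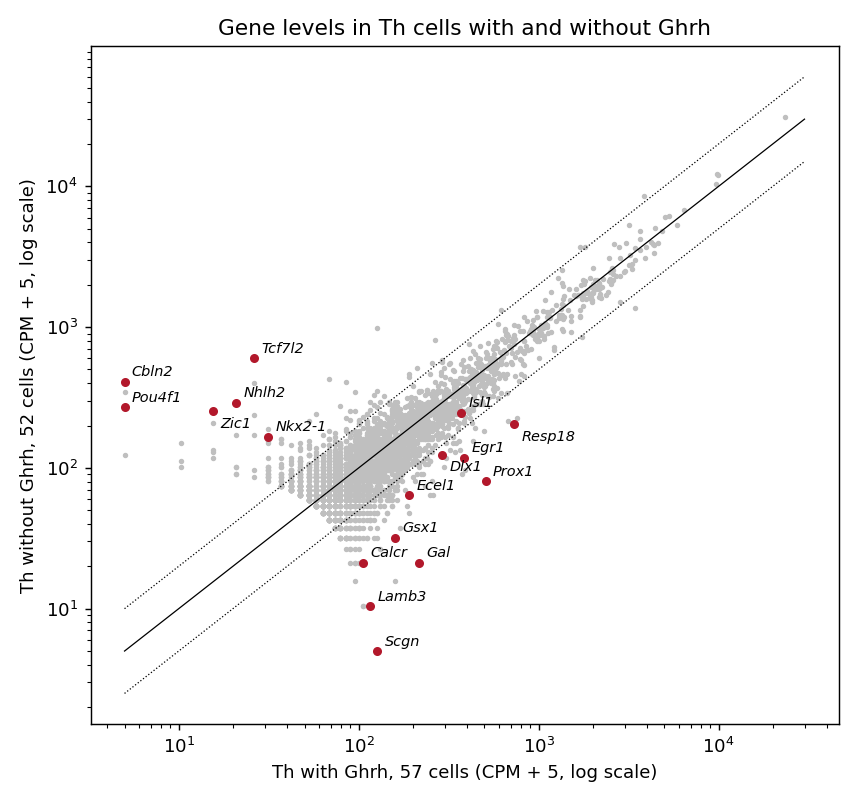
Each point is a gene compared, at its CPM plus 5 in the 57 Th cells with Ghrh (horizontal log axis) and in the 52 without (vertical log axis), with a solid line at equality and dotted lines at 2-fold. Prox1, Gsx1, Gal and Scgn lie below the lines, Tcf7l2, Pou4f1, Cbln2 and Nkx2-1 above, and Isl1 lies between them.

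The contrast was also taken with the Dlx-positive members alone. With the 29 Dlx-positive members set against the cells with Ghrh (427 of 3113 genes past 2-fold, 13.7%, 208 or 6.68% higher and 219 or 7.04% lower), Isl1 had a ratio of 0.894 (0.569 to 1.38). Dlx ratios are not read here, since the members were picked for Dlx while 49 of the 57 cells with Ghrh held it. Prox1 remained lower, at 133 against 503 CPM (3.79-fold, 2.11 to 7.38), as did Gsx1 at 40.9 against 154 CPM (3.76-fold, 1.32 to 14.7), Gal (10.4-fold) and Resp18 (3.23-fold). Nkx2-1 remained higher (6.55, 2.32 to 22.7), with Six6, a homeobox factor of the medial hypothalamus, at 3.86. Cbln2 (184 CPM against 0, at least 11.6-fold) and Tcf7l2 (184 against 21.2 CPM, 8.67, 2.86 to 35.2) also remained higher, at smaller ratios than with all members. The Tcf7l2 UMIs of these members lay in at most 3 cells. A UMI of Pou4f1, Tcf7l2 or Lhx9 was in 3 of the 29 (10.3%) and 6 of the 57 (10.5%), so the share of cells did not differ. The Prox1os difference shrank to a ratio of 0.631 with an interval across 1 (0.349 to 1.09). A UMI of Prox1 or Gsx1 was present in 47 of the 57 cells with Ghrh (82.5%) and in 9 of the 29 Dlx-positive members (31.0%).

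Compared with the 251 Th-negative gate cells that also held Dlx, the Dlx-positive members stood out for Prox1os and Prox1. Of 3086 genes, 220 differed at least 2-fold (7.13%), 136 higher (4.41%) and 84 lower (2.72%). Prox1os was at 184 against 14.0 CPM (13.2, 6.00 to 30.0), in 11 of 29 members and 8 of 251 Th-negative cells. Prox1 was at 133 against 19.8 CPM (6.71, 3.0 to 14.7), in 8 of 29 and 15 of 251. A UMI of either was present in 12 of 29 members (41.4%, 23.5 to 61.1%), 20 of the 251 (7.97%, 4.93 to 12%) and 52 of the 57 cells with Ghrh (91.2%, 80.7 to 97.1%), so on this pair of genes the Dlx-positive members lay between the other groups. The pair was counted after its values were seen. The Ghrh lineage list was not higher as a whole here, with Prox1 the 1 of 5 compared genes at least 2-fold higher, Foxp1 and Cited1 lower, and a median ratio of 0.959.

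Nkx2-1 was at 174 against 247 CPM (0.704, 0.402 to 1.15), and the arcuate field list had 0 of 6 compared genes at least 2-fold higher and 1 lower, so the higher Nkx2-1 against cells with Ghrh had no counterpart here. Gng4 and Chga were also higher. Gng4 was 5.71 times higher (2.61 to 12.1), and Chga, the granin of dense-core vesicles, was at 184 against 41.9 CPM (4.39, 2.35 to 7.93), the 1 secretory granule gene of 10 compared past 2-fold. Isl1 (1.38, 0.917 to 2.01), Hmx2 (1.11) and Gad1, Gad2 and Slc32a1 (1.54 to 1.88) were under 2-fold between these Dlx classes, while 1 of 4 compared transmitter genes was past it, with a median ratio of 1.78 beside 1.04 over all genes. Slc18a2 was at 30.6 against 4.65 CPM with an interval across 1 (6.58, 0.964 to 38.9), and Ddc had a ratio of 1.10. Lower were Zic4, a zinc-finger factor of dorsal midline tissue, 10.4-fold (1.81 to 414), Vim 6.27-fold (2.11 to 30.7), Tcf7l2 2.70-fold (1.69 to 4.59) and Zfhx3 2.51-fold (1.54 to 4.35).

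Within the 52 cells, those with and without Dlx had different companions. Of 3160 genes, Dlx genes left out, 593 differed at least 2-fold (18.8%), 290 higher (9.18%) and 303 lower (9.59%) with Dlx, in groups of 29 and 23 cells where 1 or 2 UMIs can move a gene past that limit. Prox1os had 18 UMIs with Dlx and 0 without, at least 5.39-fold, and Prox1 was 11.7 times higher (1.75 to 496). Chga was 8.09 times higher (1.94 to 71.9), Gad2 8.09 times (1.12 to 354) and Isl1 2.21 times (1.13 to 4.59). Of 13 transmitter genes, the 3 that reached the level for comparison were all at least 2-fold higher with Dlx. Low genes can reach that level through the class where they are high, so no result is read from this count. Slc17a6, which was not compared, was in 1 of the 29 cells with Dlx and 4 of the 23 without.

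Genes of thalamus and neighbouring fields were higher in the pooled cells without Dlx. Pou4f1 was at 477 CPM without Dlx against 71.5 CPM with it, 6.68-fold (2.97 to 17.6), and Tcf7l2 at 1057 against 184 CPM, 5.75-fold (3.45 to 10.1). All 3 compared genes of the thalamic list were at least 2-fold lower with Dlx. Nwd2 was at 671 against 40.9 CPM (16.4-fold, 6.08 to 62.2), Nr4a2 10.0-fold (2.4 to 89.0) and the LIM-homeodomain gene Lhx9 7.51-fold. A UMI of Pou4f1, Tcf7l2 or Lhx9 was present in 14 of the 23 cells without Dlx and 3 of the 29 with it, beside 1745 of all 2574 Th-negative gate cells. The same 3 genes gave a UMI in 94 of 204 vascular cells (46.1%), so a UMI of any of the 3 is not read as expression. Pou4f1 or Lhx9 alone were in 11 of the 204 (5.39%, 2.72 to 9.44%), 10 of the 23 members without Dlx (43.5%, 23.2 to 65.5%) and 1 of the 29 with it. The Tcf7l2 and Pou4f1 levels of the Dlx-negative members lay near the 1267 and 428 CPM of those Th-negative cells.

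**Figure D5:**
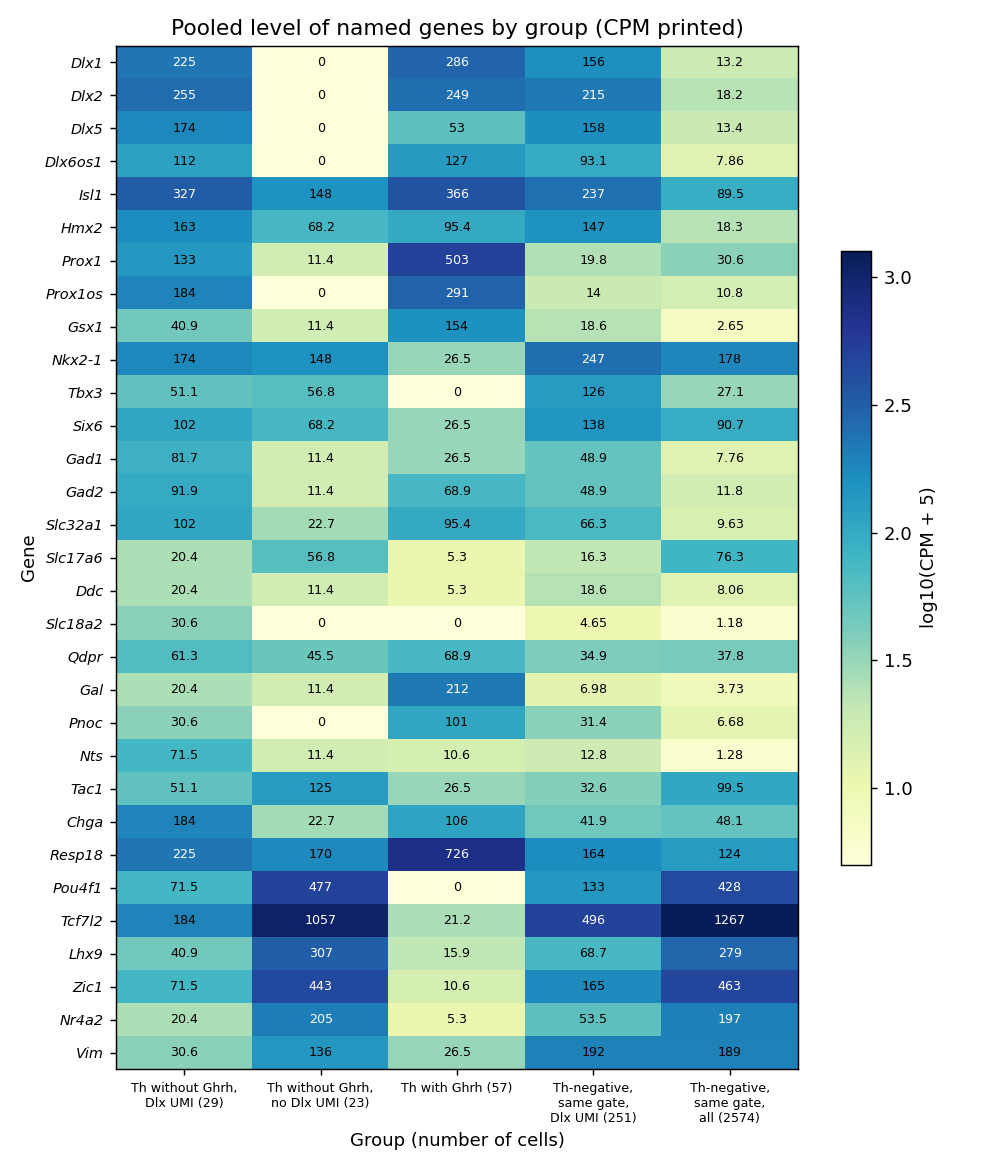
Colour gives log10 of CPM plus 5, and the printed number the CPM, for named genes (rows) in 5 groups of cells (columns). Prox1 and Prox1os stand at 133 and 184 CPM in Dlx-positive Th cells, 503 and 291 with Ghrh and 19.8 and 14.0 in Th-negative Dlx cells, while Tcf7l2 and Pou4f1 are highest in the Th cells without Dlx (1057 and 477 CPM) and in all Th-negative gate cells (1267 and 428 CPM).

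The members were also split by Th, a gene of the gate, so the values that follow are a description. The 17 cells with 2 or more Th UMIs and the 35 with 1 differed at least 2-fold in 631 of 3167 genes (19.9%), 338 higher (10.7%) and 293 lower (9.25%). Cga, the alpha subunit of pituitary glycoprotein hormones, led the higher side with 7 UMIs against 0 (at least 4.85-fold), all in 2 cells, and the pituitary list stood at 182 against 31.9 CPM. Of 13 transmitter genes, the 4 compared were all higher with more Th, among them Gad1 (7.27 times, 1.38 to 71.7). Here too low genes can reach the level through the class where they are high, so no result is read from the count. Slc17a6, which was not compared, was in 0 of the 17 cells and 5 of the 35. Gad2 and Slc32a1 were each 2.08 times higher with intervals across 1, and Slc32a1 turned to 0.736 with a mean over cells. Nr2f2, an orphan nuclear receptor, was 14.4-fold lower, Zic4 10.1-fold and Nr4a2 9.15-fold. Of 5 compared Ghrh lineage genes 1 was higher and 1 lower. A Dlx UMI was held by 14 of the 17 cells with more Th and 15 of the 35 with 1 Th UMI.

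Detection of Dlx1 and Isl1 kept its order at equal depth, where 6 members, 150 Th-negative gate cells and 4 cells with Ghrh were too shallow and left out. Dlx1 was found in 26.9% of members, 3.50% of Th-negative gate cells and 56.1% of cells with Ghrh, and after thinning in 17.4%, 2.43% and 41.5%. Isl1 was found in 48.1%, 17.8% and 68.4%, and after thinning in 37.0%, 13.0% and 49.1%. In the vascular background Dlx1 was found in 0.490% of cells and Isl1 in 3.43%, below every one of these shares. At least 2 different Dlx genes were seen in 14 of the 29 Dlx-positive members (48.3%), 119 of the 251 Th-negative Dlx cells and 32 of the 57 cells with Ghrh.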

How the data were processed

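Single-cell RNA was measured in 1 pooled arcuate nucleus library. Per the submitters' processing notes and the study's methods, the authors aligned reads to mm10 with STAR 2.4.0 inside Cell Ranger 2.1.1, which also chose the barcodes, and used Seurat 2.0. The deposited table gives whole-number UMI counts without normalization, with 27998 genes as rows and barcodes as columns. Barcodes with 200 to 4500 genes, at most 10% mitochondrial UMIs and at most 10 Hba-a1 UMIs were kept, 6351 of 6465. The study states fewer cells after filtering. No doublet caller was run. The gene limit, and a limit of 3500 as an alternative, stand in for one.

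The members and gene lists were chosen with earlier results of these data known. UMIs were pooled per group. A gene was compared where the mean of the 2 CPM values was at least 50, and counted at a ratio of 2 or more. Genes of the gate were left out of the counts. Genes named were those of the fixed lists and, per comparison, the 15 largest ratios in each direction with a UMI in at least 10% of cells of the higher group, without mitochondrial and ribosomal genes. Thinning drew 2167 UMIs per cell, the depth that 10% of kept cells do not reach. Vascular cells had at least 5 UMIs of endothelial, mural and fibroblast genes. With 1 library no test was possible. A group at 0 was set to a floor of 3 UMIs for a bound. Intervals are exact at 95%.

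The alternatives were other limits on level, genes, mitochondrial share, Th, Stmn2 and Pomc, and means over cells. The scripts were tested on simulated data. Python 3.11.15 was used, with pandas 2.3.3, numpy 2.4.6 and scipy 1.17.1 for the values and matplotlib 3.10.9 for the plots. Gene positions are GENCODE vM21 on GRCm38, and the promoter is RefSeq on GRCm38.p6. A few listed genes are not reported here.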

Additional observations from a re-analysis of the deposited data

How the results depend on the processing

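Counts of genes past 2-fold depended on the limit on level, since low genes rest on few UMIs. At 20 CPM, 100 CPM and no limit, the counts were 1313, 130 and 5315 against cells with Ghrh (423 as reported), 408, 7 and 9466 against other Stmn2-positive cells (67), 454, 12 and 8932 against Th-negative gate cells (79), 2028, 145 and 5391 between Dlx classes (593), and 2108, 142 and 6012 between Th classes (631). With no limit the genes lower in the members, mostly unseen in so few cells, outnumbered those higher by 8183 to 1283 and 7607 to 1325 against the other Stmn2-positive and the Th-negative gate cells. Requiring 2 Th UMIs left 17 cells (0.268% of kept cells) and gave 729, 430 and 449 genes against the cells with Ghrh, the other Stmn2-positive cells and the Th-negative gate cells. Against Th-negative gate cells the count was 51 with Stmn2 at 1 or more and 221 with Dlx in both groups. With Stmn2 at 4 or more there were 38 members (0.598%). The other settings, including a mean over cells, 5% mitochondrial UMIs and 3500 genes, kept these counts within 1.5 times, and with a mean over cells 359 of 361 ratios of leading or listed genes stayed within their intervals. Slc32a1 between Th classes turned from 2.08 to 0.736, and Sox11 against cells with Ghrh went from 2.06 to 2.46. Chosen after seeing the data, Dlx-positive members alone gave 428 genes against cells with Ghrh with Dlx genes counted (427 without them), and the Th-positive share under the stricter filters and gates ran from 9.36 to 11.1% with Dlx (9.34% without cells that held a pituitary gene) and 0.922 to 1.03% without. No paired analysis was possible because the runs and embryos share 1 table in which cells carry no run or embryo name, and no replicate could be left out for the same reason. With 185881 UMIs over 52 cells, a gene under 16.1 CPM in the members is at or below the 3-UMI floor.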
